A study of Mus musculus with 20 samples.

Results

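The insulin-like growth factor (IGF) system was examined in plantaris muscle of old mice through 10 genes, chosen by name: the ligands Igf1 and Igf2, the receptors Igf1r and Igf2r, and the binding proteins Igfbp2, Igfbp3, Igfbp4, Igfbp5, Igfbp6 and Igfbp7. All 10 had a row among the 22660 genes of the deposited count matrix. RNA was sequenced from 20 mice aged 2 years, 5 in each of 4 groups, and each mouse gave 1 library. Vehicle sham mice had the skin opened and received vehicle by gavage. D + Q sham mice had the same surgery and received a senolytic cocktail of dasatinib (5 mg/kg), a tyrosine kinase inhibitor, and quercetin (50 mg/kg), a plant flavonoid. Vehicle MOV and D + Q MOV mice received these gavages after mechanical overload (MOV), in which part of the gastrocnemius and soleus was cut away so that the plantaris carried their load. The treatment protocol places the gavages on days 7 and 10 and the collection on day 14, whereas the study's design text moves the second gavage of sham mice to day 14. The surgery left the plantaris itself intact, and every mouse was old, so no comparison with young muscle was possible.

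IGF1 and IGF2 are secreted peptides that signal mainly through the tyrosine kinase IGF1R, while IGF2R binds and clears IGF2 and carries lysosomal enzymes. In muscle, IGF1 is best known for promoting fiber growth, and IGF2 for its rise as myoblasts differentiate. Binding proteins hold the ligands in blood and tissue and limit or prolong their access to the receptor, and proteases that cut them release the ligand.

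Total counts ranged from 17887532 to 26234518 per mouse. Expression is given as CPM, counts per 1000000 of a library's effective size, which is its total corrected by TMM, edgeR's scaling over the 20 mice. The 8 muscle fiber markers examined (such as Acta1, Ckm and Myh4) summed to between 159365 and 181806 CPM in vehicle sham mice, and to between 86361 and 120789 CPM in vehicle MOV mice. The 4 slow fiber markers summed to 571.3 CPM in vehicle sham mouse 3 and to between 90.8 and 162.7 CPM in the other 4 vehicle sham mice. Leaving out this mouse changed no call on any IGF gene. Where nothing in the labels says how mice were housed or processed together, p-values measure the spread between these mice. A gene is called higher or lower where its p from edgeR's quasi-likelihood test, adjusted after Benjamini and Hochberg over every gene tested, was below 0.05.

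The members lie on 7 chromosomes in GRCm39. Igf1 (ENSMUSG00000020053.20) spans chr10:87693642-87772904 on the + strand, Igf2 (ENSMUSG00000048583.19) spans chr7:142204503-142220694 on the - strand, and Igf1r lies on the same chromosome at chr7:67601518-67883416. Igfbp2 (chr1:72863606-72891634, + strand) and Igfbp5 (chr1:72897091-72914043, - strand) are neighbours that face each other with 5.46 kb between their ends. H19, an imprinted noncoding RNA, lies 70.5 kb from Igf2 on the same strand. Igf1 overlaps the antisense gene Igf1os, Igf2 overlaps Igf2os, and Igf2r overlaps the antisense RNA Airn. Igf2 also overlaps Gm49394 on its own strand and Gm33148 on the other. On the other strand, Igf1r overlaps Pgpep1l and Igfbp7 overlaps Polr2b. Whether reads were counted by strand is not given in the sources used here, so reads of such pairs cannot be told apart.

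The RefSeq promoter table gave 14 start-site windows for the 10 genes, and the 250 bases before each start were each found at 1 place in GRCm39. In 4 of these windows at most 30 bases fall in an annotated exon, and these are shown because they take in the ligand Igf2, which rose steeply under MOV, members that rose less (Igf2r and Igfbp6) and Igfbp5, which was not called. Capitals mark the E-box CANNTG, the core motif bound by myogenic basic helix-loop-helix factors, a pattern that is the same on both strands and takes in the form CAGCTG.
Igf2, 4th window (chr7:142211234-142211483, - strand): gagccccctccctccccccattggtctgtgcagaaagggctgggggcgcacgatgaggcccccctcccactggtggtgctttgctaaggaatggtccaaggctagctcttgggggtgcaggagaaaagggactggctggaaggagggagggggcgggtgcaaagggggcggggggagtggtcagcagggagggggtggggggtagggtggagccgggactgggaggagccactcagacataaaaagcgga
Igf2r (chr17:12988594-12988843, - strand): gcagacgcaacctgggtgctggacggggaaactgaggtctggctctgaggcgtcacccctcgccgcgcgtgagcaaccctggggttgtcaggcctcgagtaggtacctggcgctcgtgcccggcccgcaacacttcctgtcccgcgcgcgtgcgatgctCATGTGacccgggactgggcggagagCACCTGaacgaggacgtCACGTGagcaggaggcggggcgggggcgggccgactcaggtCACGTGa
Igfbp6 (chr15:102052371-102052620, + strand): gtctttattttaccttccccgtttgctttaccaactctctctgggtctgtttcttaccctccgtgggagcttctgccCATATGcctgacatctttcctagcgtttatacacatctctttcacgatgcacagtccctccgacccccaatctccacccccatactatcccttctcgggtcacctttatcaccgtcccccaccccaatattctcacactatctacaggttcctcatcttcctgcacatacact
Igfbp5 (chr1:72914025-72914274, - strand): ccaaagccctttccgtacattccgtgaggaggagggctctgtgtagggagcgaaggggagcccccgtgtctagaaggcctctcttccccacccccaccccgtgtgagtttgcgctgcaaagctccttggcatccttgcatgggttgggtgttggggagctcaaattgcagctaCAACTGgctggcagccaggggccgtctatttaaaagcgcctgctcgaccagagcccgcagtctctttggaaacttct
The Igf2 window shown holds 0 E-boxes, while the first of the 4 Igf2 windows, not shown, holds 2. The Igf2r window holds 4, and the Igfbp6 and Igfbp5 windows hold 1 each. Over the members, 9 of 14 windows hold at least 1, where 66.2% of all 32851 windows in the table do. CAGCTG is in the Igf1 window and in 13% of all windows. TATAAA, searched on both strands, is in the Igfbp4 and Igfbp6 windows and in 12.4% of all windows. A match describes these letters and is not a binding site.

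In resting muscle the binding proteins made up most of the IGF system's RNA. Levels between genes were compared as CPM per kilobase of merged exons. In vehicle sham mice Igfbp5, a binding protein of muscle and bone matrix, stood first at 92.2 ± 20.1 CPM per kilobase (SD, n = 5), followed by Igfbp6, which prefers IGF2 as a ligand, at 24.6 ± 2.93. Igf2r followed at 14.0 ± 0.621, then Igfbp4, which inhibits IGF action until it is cleaved, at 10.2 ± 1.60, and Igfbp7, a secreted matrix protein that binds IGFs weakly, at 6.34 ± 0.511. None of these neighbours in the order overlapped among the 5 mice. Igfbp3, the main carrier in serum, stood at 2.98 ± 0.498 CPM per kilobase. The ligands and the signalling receptor came below these, with Igf2 at 1.78 ± 0.268, Igf1 at 1.16 ± 0.223 and Igf1r at 1.06 ± 0.139 CPM per kilobase. The ranges of Igf2 and Igf1 overlapped, as did those of Igf1 and Igf1r, and with the length of the longest transcript in place of merged exons Igf1r stood above Igf1. Igfbp2 was near the floor, with 0, 0, 0, 3 and 1 counts in the 5 vehicle sham mice. The order was the same in D + Q sham mice, where the ranges of Igf2r (13.3 ± 0.523) and Igfbp4 (12.2 ± 1.86) also overlapped.

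MOV raised most of the IGF system. With vehicle, 7 of the 9 members tested were higher in MOV than in sham muscle and 0 were lower in edgeR's quasi-likelihood test, where 60.5% of all 14601 genes tested were called, 30.7% higher and 29.8% lower. With D + Q, 8 of 10 were higher and 0 lower, where 65.3% of 14913 genes were called, 34.4% higher and 30.9% lower. Over the 9 members tested in both treatments the median log2 fold change was 1.31 with vehicle, against -0.0155 over all genes tested, and 1.3 with D + Q, against 0.0226. The same 7 members rose in both treatments: the ligands Igf1 and Igf2, the receptor Igf2r, and Igfbp3, Igfbp4, Igfbp6 and Igfbp7. Igfbp2 was tested only with D + Q. It passed the count minimum there only through its MOV mice, so its call adds nothing to the count. In each of these 7 genes the MOV and sham mice did not overlap in either treatment, which held for 46.5% of all genes tested with vehicle (23.6% with MOV above sham) and for 53.2% with D + Q (26.2% with MOV above sham). The panels of CPM per mouse show this separation gene by gene.

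**Figure D1:**
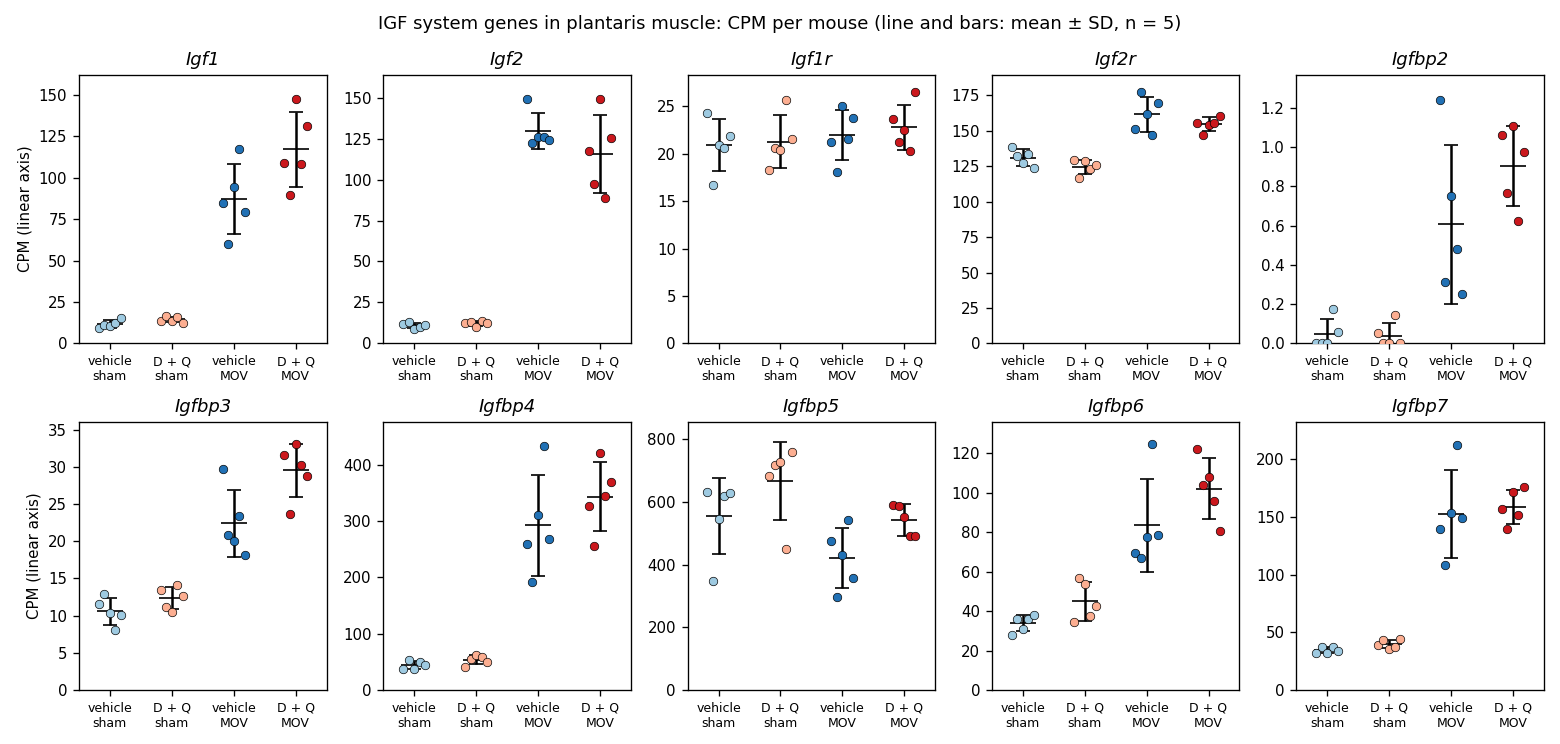
CPM of the 10 IGF system genes in each mouse, on linear axes that start at 0, in sham and MOV muscle with vehicle or D + Q. Points are mice, and the line and bars are the mean ± SD (n = 5). Igf1, Igf2, Igf2r, Igfbp3, Igfbp4, Igfbp6 and Igfbp7 separate MOV from sham mice without overlap, while Igf1r and Igfbp5 do not.

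Both ligands rose several-fold. Igf1 stood at 9.25, 11.4, 10.8, 12.3 and 15.4 CPM in the 5 vehicle sham mice and at 84.5, 60.2, 94.5, 117.2 and 79.6 CPM in the 5 vehicle MOV mice. The lowest MOV mouse was far above the highest sham mouse, and the fold change was 7.47 (log2 2.90, SE 0.187, edgeR adjusted p = 1.91e-07). With D + Q, Igf1 stood at 13.8, 16.4, 13.6, 16 and 12.5 CPM in sham and at 109.0, 89.5, 147.5, 108.0 and 131.4 CPM in MOV mice, a fold change of 8.36 (log2 3.06, SE 0.137, edgeR adjusted p = 2.05e-09).

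Igf2 stood at 12.0, 12.8, 8.51, 10.3 and 11.4 CPM in vehicle sham mice and at 149.1, 122.6, 126.2, 126.1 and 124.3 CPM in vehicle MOV mice. In the MOV group, 4 mice lay between 122.6 and 126.2 CPM and mouse 1 stood above them. The fold change was 11.9 (log2 3.57, SE 0.104, edgeR adjusted p = 1.79e-11). With D + Q the sham mice held 12.2, 13.3, 9.85, 13.5 and 12.5 CPM and the MOV mice 117.3, 97.3, 149.1, 88.7 and 125.2 CPM, a more scattered group with a fold change of 9.75 (log2 3.29, SE 0.151, edgeR adjusted p = 5.06e-09). H19, the neighbour of Igf2 in the same imprinted cluster, rose from 239.0 ± 45.3 to 2551 ± 559.2 CPM with vehicle (log2 3.43) and from 266.3 ± 68.2 to 2320 ± 258.7 CPM with D + Q (log2 3.17).

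The receptors behaved differently from the ligands. Igf1r, the receptor that signals, stood at 24.3, 16.7, 20.9, 20.6 and 21.9 CPM in vehicle sham mice and at 21.2, 18.1, 25.1, 21.6 and 23.8 CPM in vehicle MOV mice. The groups overlapped almost wholly. The log2 fold change was 0.086 (95% interval -0.142 to 0.313, edgeR adjusted p = 0.51) with vehicle and 0.144 (-0.0494 to 0.337, adjusted p = 0.18) with D + Q, so that a change beyond 0.34 on the log2 scale in either direction lay outside both intervals. Igf2r, which clears IGF2, rose from 131.1 ± 5.81 to 161.6 ± 12.5 CPM with vehicle (log2 0.315, SE 0.0679, edgeR adjusted p = 0.000946) and from 124.8 ± 4.90 to 154.6 ± 5.04 CPM with D + Q (log2 0.356, SE 0.0512, adjusted p = 8.16e-06). These values depend on how libraries were scaled. With total counts alone, which moves the median of all genes by 0.377 with vehicle and 0.365 with D + Q on the log2 scale, Igf1r was called higher in both treatments (log2 0.468 and 0.511), and the log2 fold change of Igf2r was 0.689 with vehicle and 0.722 with D + Q. Igf1r was also called higher with D + Q when D + Q sham mouse 4 was left out (log2 0.221, edgeR adjusted p = 0.0317). Under total counts, genes called higher made up 84.1% and 83.5% of all calls in place of 50.8% and 52.6%.

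Among the binding proteins tested in both treatments, Igfbp4 had the largest rise. It stood at 37.9, 53.8, 38.2, 50.2 and 45.2 CPM in vehicle sham mice and at 259.6, 192.1, 310.1, 434.0 and 267.6 CPM in vehicle MOV mice. Every MOV mouse lay above every sham mouse, with a fold change of 6.56 (log2 2.71, SE 0.209, edgeR adjusted p = 1.13e-06). With D + Q the fold change was 6.57 (log2 2.72, SE 0.144, adjusted p = 1.75e-08).

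Igfbp7 rose from between 32 and 37.8 CPM (median 33.8) to between 108.4 and 212.2 CPM (median 148.9) with vehicle, a fold change of 4.45 (edgeR adjusted p = 1.82e-07), and by 4.11-fold with D + Q (adjusted p = 1.37e-12). Igfbp6 rose from between 28.2 and 38.0 CPM to between 66.7 and 124.7 CPM with vehicle, a fold change of 2.49 (adjusted p = 3.5e-05), and by 2.35-fold with D + Q (adjusted p = 4.85e-05). Igfbp3 rose from between 8.15 and 12.9 CPM to between 18.1 and 29.7 CPM with vehicle, a fold change of 2.13 (adjusted p = 1.4e-05), and by 2.46-fold with D + Q (adjusted p = 4e-09). These were smaller rises than those of Igf1 and Igf2, as the plot of log2 fold changes shows.

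Igfbp2, a carrier abundant in fetal tissues, appeared in MOV muscle at a low level. Its counts were 31, 6, 16, 11 and 6 in the vehicle MOV mice and 27, 20, 26, 14 and 22 in the D + Q MOV mice, against 4 counts in all over each sham group. Every MOV mouse had more counts than any sham mouse. After scaling by effective library size, the ratio of summed counts (70 against 4 with vehicle and 109 against 4 with D + Q) was 13.9 with vehicle (exact 95% interval 5.18 to 52.3) and 21.8 with D + Q (8.28 to 81.5), intervals that cover counting error only.

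Igfbp5, the neighbour of Igfbp2, was the only binding protein tested that was not called in either treatment. It stood at 631.9, 347.8, 543.9, 619.0 and 627.7 CPM in vehicle sham mice and at 476.5, 297.9, 430.9, 540.9 and 356.2 CPM in vehicle MOV mice. The groups overlapped because of vehicle sham mouse 2, although 0 of the 5 MOV mice lay above the sham median. The log2 fold change was -0.384 (95% interval -0.803 to 0.0349, edgeR adjusted p = 0.103). With D + Q, the sham mice held 680.7, 717.2, 726.6, 450.6 and 757.1 CPM and the MOV mice 591.4, 586.4, 552.3, 490.1 and 489.7 CPM, where sham mouse 4 alone fell below the MOV mice (log2 -0.25, 95% interval -0.518 to 0.0188, adjusted p = 0.094). Igfbp5 was called lower without vehicle sham mouse 2 (log2 -0.514, adjusted p = 0.0106) and without D + Q sham mouse 4 (log2 -0.362, adjusted p = 0.000316), and also with limma-voom in both treatments. With total counts only, its log2 fold change was 0.00875 with vehicle and 0.115 with D + Q, and it was not called.

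**Figure D2:**
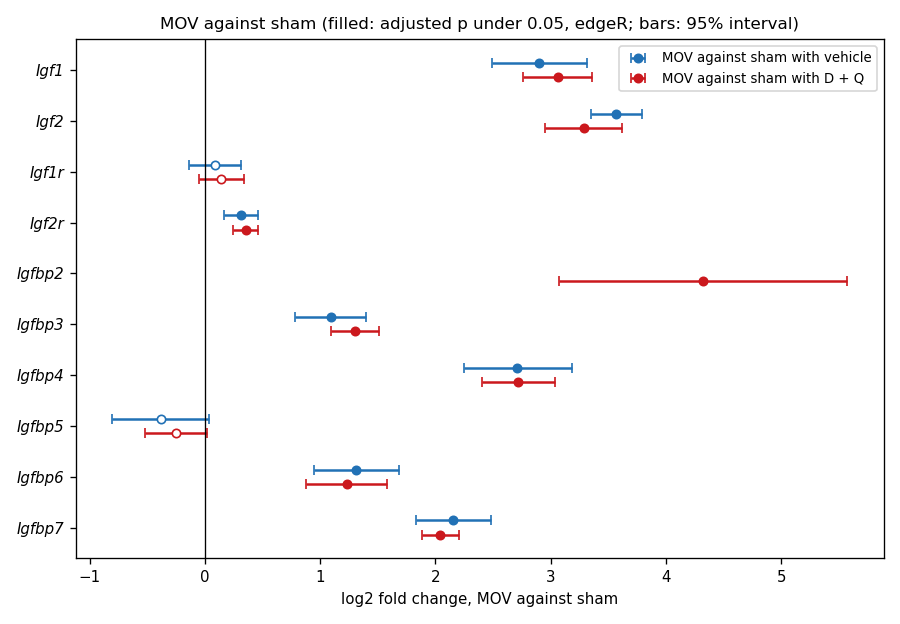
Log2 fold change of each IGF system gene in MOV against sham muscle with vehicle and with D + Q, with 95% intervals. Filled points were called by edgeR. Igf2 lies at 3.57 and 3.29 and Igf1 at 2.90 and 3.06, while Igf1r and Igfbp5 have intervals that take in 0. Igfbp2 was tested only with D + Q.

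The make-up of the binding proteins differed between sham and MOV muscle. Summed over the 6 genes, they came to 136.4 ± 18.6 CPM per kilobase in vehicle sham and 231.3 ± 57.6 in vehicle MOV mice (SD, n = 5), and to 166.6 ± 24.8 and 279.7 ± 21.3 with D + Q. Igfbp5 made up 67.0% ± 7.29 of the sum in vehicle sham mice, with a range of 54.4% to 73.4%, and 30.5% ± 3.12 in vehicle MOV mice, with a range of 27.8% to 35.6%. Igfbp4 made up 7.67% ± 2.16 in vehicle sham and 28.3% ± 2.08 in vehicle MOV mice, and Igfbp7 4.75% ± 0.955 and 12.1% ± 0.552. The share of Igfbp6 went from 18.3% ± 3.70 to 26.2% ± 2.63. In D + Q mice the Igfbp5 share was 66.3% ± 4.71 in sham and 32.3% ± 2.88 in MOV, and that of Igfbp4 was 7.47% ± 1.77 and 27.7% ± 4.17. The sham and MOV ranges of the Igfbp5 and Igfbp4 shares did not overlap in either treatment. Over the same mice the summed ligands went from 2.94 ± 0.352 to 29.6 ± 2.77 CPM per kilobase with vehicle and from 3.40 ± 0.353 to 30.2 ± 5.91 with D + Q.

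**Figure D3:**
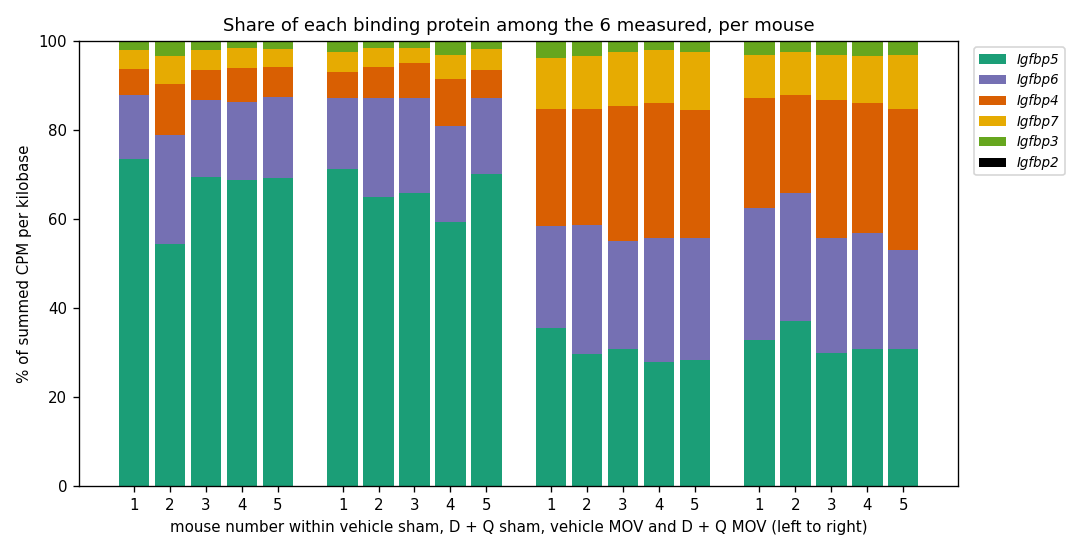
Share of each binding protein in the summed CPM per kilobase of the 6 measured, with 1 stacked bar per mouse, with both sham groups to the left of both MOV groups. Igfbp5 takes 54.4% to 73.4% in vehicle sham mice and 27.8% to 35.6% in vehicle MOV mice, and the mean share of Igfbp4 goes from 7.67% to 28.3%.

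In MOV muscle the order of levels changed accordingly. With vehicle, Igfbp5 (70.0 CPM per kilobase), Igfbp4 (66.2) and Igfbp6 (60.5) overlapped at the top, and with the length of the longest transcript Igfbp4 stood above Igfbp5. Igfbp7 (28.0) and Igf2 (21.0) followed and overlapped, then Igf2r (17.2), and then Igf1 (8.52) and Igfbp3 (6.29), which overlapped. Igf1r (1.11) and Igfbp2 (0.293) came last. Igf2 thus passed its clearing receptor Igf2r in vehicle MOV mice without overlap, while the ranges of the pair overlapped in D + Q MOV mice (18.7 and 16.5 CPM per kilobase).

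Markers of most other cell types examined were higher in the same muscles, and adipocyte markers were lower. Of 10 fibroblast and fibro-adipogenic progenitor markers (such as Pdgfra, Dcn, Lum and Col1a1), 9 were higher in MOV than in sham muscle in each treatment, and the sum of the 10 went from between 1044 and 1572 to between 6517 and 12934 CPM with vehicle and from between 1249 and 2084 to between 11543 and 15589 CPM with D + Q. Much of the vehicle MOV sum was collagen, with means of 2301 (Col1a1), 2150 (Col1a2) and 4034 CPM (Col3a1). In vehicle sham mice these means were 48.5, 76.3 and 104.7 CPM. With vehicle the collagens rose by 4.83 to 5.58 on the log2 scale, and the other markers called by 0.945 (Dcn) to 3.1 (Lum). Gsn was not called with vehicle (log2 -0.293). Of 10 macrophage markers, 9 were higher with vehicle and 10 with D + Q, with sums from 62.9 to 164.8 CPM in vehicle sham and from 310.5 to 923.5 CPM in vehicle MOV mice. All 4 tenocyte markers, 6 of 8 endothelial and 5 of the satellite cell and myoblast markers tested (7 with vehicle and 8 with D + Q) were also higher in each treatment, and 1 of the satellite cell and myoblast markers was lower with D + Q (Cdh15, log2 -0.217). Of 6 mural cell markers 4 were higher in each treatment, and of 4 Schwann cell markers 1 was higher in each and 1 lower with D + Q. Of 3 adipocyte markers tested, 3 were lower with vehicle (Plin1, log2 -2.06, Cidec, -1.51, and Adipoq, -1.22) and 1 with D + Q (Cidec). Of 4 slow fiber markers, 2 were higher and 1 lower with vehicle, and 3 were higher and 0 lower with D + Q. Their sum went from between 90.8 and 571.3 to between 278.2 and 938.2 CPM with vehicle. With D + Q it went from between 73.8 and 168.1 to between 450.2 and 829.8 CPM. No marker of these lists was at 0 in every mouse of a group. With vehicle, few sham mice reached 10 counts of Mymk, Mkx or Sox10, so these markers passed the count minimum mainly through MOV mice. With D + Q the same held for Mymk (0, 6, 0, 3 and 0 counts in sham mice) and Sox10 (7, 4, 11, 2 and 14). Calls of these markers in those comparisons add nothing to the counts of their lists. Sox10 was the Schwann cell marker called higher with vehicle (edgeR adjusted p = 0.0494). The part of these cell types in the rise of the IGF genes was not tested, and in whole muscle more cells of a type and more RNA per cell cannot be told apart.

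Within the MOV groups, the mice at the ends of the fibroblast marker sum were also at the ends for several IGF genes. Only the mice at the ends were compared, and the share of all genes at the same ends was not computed. In vehicle MOV mice, mouse 2 had the lowest sum (6517 CPM) and also the lowest value of 7 of the 10 members (Igf1, Igf2, Igf1r, Igfbp4, Igfbp5, Igfbp6 and Igfbp7), and mouse 4 had the highest sum (12934 CPM) and the highest value of 5 (Igf1, Igfbp4, Igfbp5, Igfbp6 and Igfbp7). In D + Q MOV mice, mouse 2 had the lowest sum (11543 CPM) and the lowest value of 5 members, and mouse 3 had the highest sum (15589 CPM) and the highest value of 5, with Igf1, Igfbp3 and Igfbp4 among both. Igfbp5 and Igfbp6, which matched at both ends in vehicle MOV mice, matched at neither end in D + Q MOV mice. In sham mice the mouse at either end of the fibroblast sum was also at that end for 1 to 3 members. Over all genes, vehicle MOV mice 2 and 4 were the least alike pair of libraries within any group. Their ratio of observed to counting variance was 68.4, and the next highest, for vehicle MOV mice 4 and 5, was 50.1. The matches of these mice are therefore not particular to the IGF genes or the fibroblast markers. Vehicle MOV mouse 2 also had the lowest macrophage marker sum (310.5 CPM) and the highest muscle fiber sum (120789 CPM) of its group, and mouse 4 had the highest macrophage sum (923.5 CPM) and the lowest fiber sum (86361 CPM). The part of these differences in cell markers in the IGF values was not tested, and with 5 mice a group no correlation was computed.

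The profiles of the ligands over the 20 mice were most like those of different genes. For Igf1 the smallest root-mean-square differences in centred log2 CPM, among 3172 genes that varied enough, were those of Serpinh1 (0.18), a collagen chaperone, Fzd1 (0.20), a Wnt receptor, and Emp1 (0.212), a membrane protein. For Igf2, among 2495 genes, they were those of Myog (0.282), a transcription factor of differentiating myoblasts, H19 (0.298) and Emilin1 (0.326), an elastic fiber glycoprotein. The SD over mice was 1.53 for Igf1 and 1.75 for Igf2 on the same scale, and most of it was the difference between MOV and sham, which these genes share.

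No IGF gene passed the test between treatments in overloaded muscle. In D + Q MOV against vehicle MOV mice, 0 of 10 members were called in edgeR's quasi-likelihood test, where 0.0% of all 15238 genes were called. At an unadjusted p under 0.05 there were 3 members (Igf1, Igfbp3 and Igfbp5), all with higher values with D + Q, where 8.79% of all genes reached that level (4.19% with higher values), and DESeq2 and limma-voom called 0 members as well. DESeq2 called 8 genes of the whole table. The log2 difference was positive in 8 members and negative in 2 (Igf2 and Igf2r), with a median of 0.256 against 0.002 over all genes. The values of the treatments overlapped in all 10 members, where 1.5% of all genes did not overlap. The comparisons of MOV with sham use the same MOV mice.

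Igf1 stood at 84.5, 60.2, 94.5, 117.2 and 79.6 CPM in vehicle MOV and at 109.0, 89.5, 147.5, 108.0 and 131.4 CPM in D + Q MOV mice. All 5 D + Q mice lay above the vehicle median, but the groups overlapped. The log2 difference was 0.418 (SE 0.169, 95% interval 0.0485 to 0.788, edgeR adjusted p = 0.547), and the two-sided exact permutation p of the difference in mean log2 CPM was 0.0714. Leaving out vehicle MOV mouse 2 lowered the log2 difference to 0.31, and leaving out vehicle MOV mouse 4 raised it to 0.54. Igf2 went the other way, with 1 of 5 D + Q mice above the vehicle median and a log2 difference of -0.175 (95% interval -0.436 to 0.0861, adjusted p = 0.68, exact permutation p = 0.198).

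Igfbp3 stood at 29.7, 20.8, 20.1, 23.4 and 18.1 CPM in vehicle MOV and at 31.6, 23.7, 33.0, 30.3 and 28.7 CPM in D + Q MOV mice. Vehicle mouse 1 alone lay within the D + Q range, and the log2 difference was 0.384 (SE 0.126, 95% interval 0.114 to 0.654, edgeR adjusted p = 0.523, exact permutation p = 0.0317). Igfbp5 stood at 420.5 ± 96.1 CPM in vehicle and 542.0 ± 49.9 CPM in D + Q MOV mice, a log2 difference of 0.36 (SE 0.136, 95% interval 0.0682 to 0.653, edgeR adjusted p = 0.523, exact permutation p = 0.0317). The smallest p this exact permutation test can give with 5 against 5 mice is 0.00794, and 20 such tests were run without adjustment.

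For the remaining members the interval of the log2 difference in MOV muscle took in 0. It was -0.159 to 0.254 for Igf1r, -0.225 to 0.0804 for Igf2r, -0.31 to 1.40 for Igfbp2, -0.191 to 0.643 for Igfbp4, -0.0729 to 0.644 for Igfbp6 and -0.246 to 0.351 for Igfbp7. The receptors thus had the narrowest intervals and Igfbp2 the widest. By summed counts (109 against 70) scaled by effective library size, D + Q MOV mice had 1.45 times the Igfbp2 of vehicle MOV mice (exact 95% interval 1.06 to 1.99 for counting error only).

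No IGF gene passed the test between treatments in sham muscle either. In D + Q sham against vehicle sham mice 0 of 9 members were called by edgeR, where 0.215% of 13926 genes were called, and DESeq2 and limma-voom also called 0. At an unadjusted p under 0.05 there were again 3 members, but not the same 3: Igf1, Igfbp6 and Igfbp7, where 10.2% of all genes reached that level (5.39% with higher values). The values overlapped in all 9, where 2.12% of all genes did not overlap. Igf1 was 11.8 ± 2.28 CPM with vehicle and 14.5 ± 1.68 CPM with D + Q (log2 0.282, 95% interval 0.0254 to 0.539, edgeR adjusted p = 0.444, exact permutation p = 0.0714). Igfbp6 was 33.9 ± 4.04 and 45.0 ± 9.77 CPM (log2 0.396, 95% interval 0.0801 to 0.713, adjusted p = 0.385, exact permutation p = 0.0556), and Igfbp7 was 34.6 ± 2.78 and 40.0 ± 3.75 CPM (log2 0.197, 95% interval 0.0419 to 0.352, adjusted p = 0.369, exact permutation p = 0.0476). The difference was positive in 8 of the 9 members, with a median of 0.205 against -0.00406 over all genes, and Igf2r was the exception (log2 -0.0822).

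**Figure D4:**
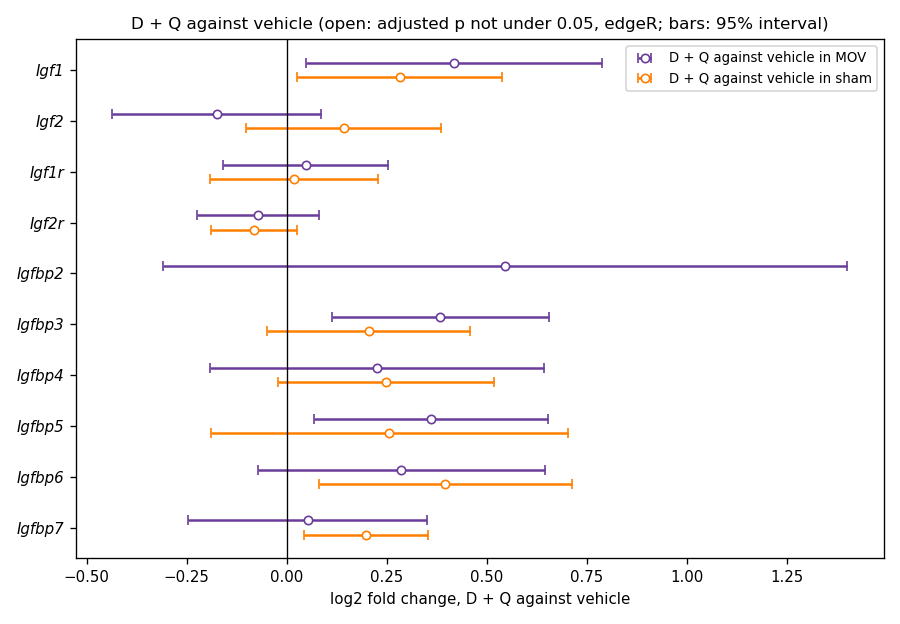
Log2 difference of each IGF system gene between D + Q and vehicle, in MOV and in sham muscle, with 95% intervals. All points are open because edgeR called none. Intervals leave out 0 for Igf1, Igfbp3 and Igfbp5 in MOV and for Igf1, Igfbp6 and Igfbp7 in sham muscle.

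Markers of fibroblasts, tenocytes and macrophages also had mostly higher values with D + Q, while other lists were mixed. All 10 of the fibroblast markers had higher values with D + Q in MOV muscle, 5 of them at an unadjusted p under 0.05, and all 10 did in sham muscle, 7 of them at that level, although 0 were called after adjustment by edgeR in either. Their median log2 difference was 0.356 in MOV and 0.401 in sham muscle, beside 0.256 and 0.205 for the IGF members. Tenocyte markers had higher values in 4 of 4 in both MOV and sham muscle (medians 0.344 and 0.347), macrophage markers in 9 of 10 and 8 of 10 (0.231 and 0.163), and mural cell markers in 3 of 6 and 6 of 6. In MOV muscle values were higher in 3 of 7 satellite cell and myoblast, 3 of 8 endothelial, 3 of 8 muscle fiber and 1 of 4 slow fiber markers. In sham muscle the numbers were 5 of 7, 7 of 8, 5 of 8 and 0 of 4. Schwann cell markers were higher in 3 of 4 and 3 of 3 tested, and adipocyte markers in 3 of 3 and 1 of 4. None of these markers was called. The part of these cells in the D + Q differences was not tested.

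Whether D + Q altered the response to MOV was asked of the interaction over all 20 mice. In edgeR's quasi-likelihood test 0 of 10 members were called and 0 reached an unadjusted p under 0.05, where 0.0127% of 15700 genes were called and 5.71% reached that level. DESeq2 and limma-voom also called 0 members. Igf2 had the lowest adjusted p among the members, with a smaller fold change under D + Q that was not called (log2 -0.32, 95% interval -0.689 to 0.0493, edgeR adjusted p = 0.862). For Igf1 the interaction was 0.129 (95% interval -0.374 to 0.632, adjusted p = 0.979).

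The ratio of Igf2 to Igf1 within each mouse does not depend on library scaling, and is given without a test. Per kilobase of merged exons, the log2 ratio was 1.10, 0.897, 0.393, 0.472 and 0.296 in vehicle sham and 1.55, 1.76, 1.15, 0.838 and 1.37 in vehicle MOV mice, with means of 0.632 ± 0.349 and 1.33 ± 0.356 (SD, n = 5). With D + Q it was 0.551, 0.423, 0.266, 0.479 and 0.732 in sham and 0.838, 0.852, 0.747, 0.447 and 0.662 in MOV mice, with means of 0.49 ± 0.171 and 0.709 ± 0.165. Igf2 exceeded Igf1 in all 20 mice on this scale. The mean was highest in vehicle MOV mice, where mouse 4, at 0.838, lay within the D + Q MOV range and below vehicle sham mice 1 and 2.

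**Figure D5:**
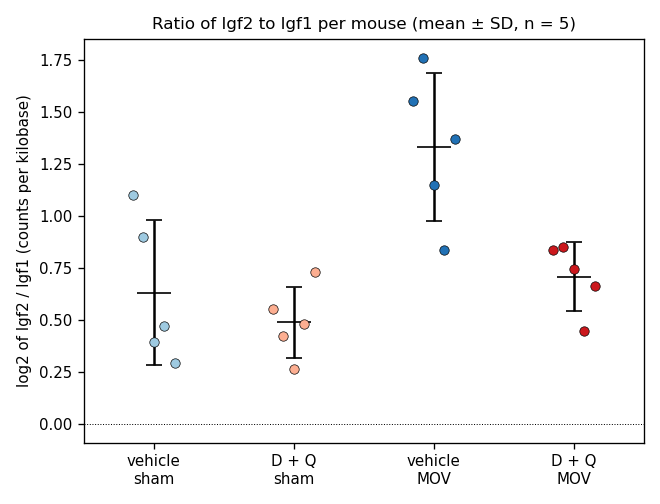
Log2 ratio of Igf2 to Igf1 per kilobase of merged exons in each mouse, with the mean ± SD (n = 5) of each group. Vehicle MOV mice lie between 0.838 and 1.76 and D + Q MOV mice between 0.447 and 0.852, and the dotted line at 0 marks equal levels.

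Genes around the 10 members were counted by list, beside the 30.7% of all genes called higher and 29.8% called lower under MOV with vehicle, and 34.4% and 30.9% with D + Q. Among imprinted growth genes, all 8 were higher in MOV than in sham muscle in both treatments, with a median log2 fold change of 3.79 with vehicle and 3.5 with D + Q. Dlk1, a membrane-bound regulator of progenitor differentiation, rose by 6.13 on the log2 scale with vehicle and 5.03 with D + Q, Mest by 6.12 and 6.28, and Plagl1, a zinc finger transcription factor, by 4.74 and 4.46 (edgeR adjusted p from 9.89e-10 to 1.71e-06 over these 6 values). The sham mice held 0.18 ± 0.0934 CPM of Dlk1 and 1.65 ± 0.442 CPM of Mest with vehicle, so these folds start from low levels. Dlk1 had 5, 2, 5, 2 and 2 counts in the vehicle sham mice. It passed the count minimum with vehicle only through its MOV mice. With D + Q its sham counts were 7, 10, 13, 5 and 12, so MOV mice were needed there too. Plagl1, at 10, 14, 9, 15 and 13 counts in vehicle sham mice, also needed MOV mice to pass with vehicle. These calls add nothing to the count of 8. Between D + Q and vehicle, Cdkn1c, a cell cycle inhibitor (log2 0.254 in MOV and 0.375 in sham), Ndn (0.284 in MOV) and Meg3, a noncoding RNA (0.506 in sham), were at an unadjusted p under 0.05 and were not called by edgeR (adjusted p from 0.15 to 0.558).

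Of the enzymes that cut binding proteins and their inhibitors, 7 of 9 tested were higher in MOV muscle with vehicle and 0 lower, and 6 of 8 were higher and 1 lower (Ctsd, a lysosomal protease, log2 -0.16) with D + Q. Pappa, the metalloprotease that cleaves IGFBP4, rose by 2.18 and 2.25 on the log2 scale (edgeR adjusted p = 0.00152 and 0.00048) beside the rise of Igfbp4 itself. Pappa was low in level, at 0.279 ± 0.217 CPM in vehicle sham and 1.31 ± 0.483 CPM in vehicle MOV mice. Adam12, which cleaves IGFBP3 and IGFBP5, went from 0.283 ± 0.329 to 28.8 ± 5.97 CPM with vehicle (log2 6.71), Mmp3 from 0.816 ± 0.44 to 9.79 ± 2.26 CPM (log2 3.61) and Mmp2 from 26.8 ± 5.04 to 302.8 ± 69.6 CPM (log2 3.51). With D + Q they rose by 6.72, 3.11 and 3.49 on the log2 scale. Vehicle sham mice held 11, 5, 2, 0 and 8 counts of Pappa and 1, 14, 6, 3 and 0 of Adam12. Stc1, also called higher with vehicle, had 7, 6, 9, 0 and 3. These genes passed the count minimum with vehicle only through their MOV mice. The same held for Pappa and Adam12 with D + Q, so these calls add nothing to the counts of 7 and 6. Mmp3, at 7, 23, 6, 18 and 17 counts in vehicle sham mice, also needed MOV mice to pass with vehicle. Its call there adds nothing to the count of 7 either. Between D + Q and vehicle MOV mice, Mmp2 (log2 0.469), Mmp3 (0.451) and Htra1 (0.45) had higher values with D + Q at an unadjusted p under 0.05, and none was called by edgeR (adjusted p from 0.523 to 0.563). In sham muscle Mmp2 (log2 0.515), Mmp3 (0.967) and Htra3 (0.338) were at an unadjusted p under 0.05 and were not called after adjustment (edgeR adjusted p from 0.355 to 0.393).

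Carriers and relatives of the family split in direction. Igf2bp2, an RNA-binding protein that holds Igf2 mRNA, rose by 2.67 with vehicle and 1.92 with D + Q on the log2 scale, and M6pr, the smaller mannose 6-phosphate receptor, by 0.348 and 0.425. Igfals, the subunit that completes the serum IGF complex, was lower by -1.37 and -1.58, and Insr, the insulin receptor, by -0.49 and -0.457. All 8 values had an adjusted p under 0.05 in edgeR. The value of Igf2bp2 in MOV muscle with D + Q was below that with vehicle (log2 -0.457, edgeR adjusted p = 0.547), at an unadjusted p under 0.05.

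Downstream of the receptor, 6 of the 25 signalling genes were higher and 7 lower in MOV muscle with vehicle, and 6 were higher and 12 lower with D + Q. With vehicle these shares lie near those of all genes, so the counts do not set the list apart. Among the rises with vehicle were those of Grb10, an imprinted adaptor that restrains the receptor (log2 1.89 with vehicle and 1.77 with D + Q), and Shc1, an adaptor of the receptor (0.772 and 0.87). The largest falls with vehicle were those of Akt2, the AKT form tied to insulin-driven glucose uptake (log2 -0.70 and -0.783), Tsc1, a brake on mTORC1 (-0.627 and -0.688), and Grb14 (-0.524 and -0.416). Between D + Q and vehicle MOV mice only Irs1, a docking protein, was at an unadjusted p under 0.05 (log2 0.24, edgeR adjusted p = 0.553). In sham muscle 5 genes did: Grb10 (log2 0.268), Eif4ebp1 (0.264), Foxo1 (0.291), Foxo3 (0.203) and Pik3cb (-0.207), with edgeR adjusted p between 0.214 and 0.475.

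Growth hormone signalling, which drives Igf1 transcription in liver, had genes called in both directions. With vehicle, 5 of 8 genes were lower and 1 higher, where 29.8% of all genes tested were lower and 30.7% higher. With D + Q 3 were lower and 2 higher (Socs3 and Socs1), near the shares of all genes (30.9% lower and 34.4% higher). Ghr, the growth hormone receptor, went from 188.2 ± 13.1 to 86.5 ± 9.02 CPM with vehicle (log2 -1.11) and from 204.6 ± 19 to 93.9 ± 6.94 CPM with D + Q (log2 -1.07). Stat5b, which carries the signal to the nucleus, was lower by -1.43 and -1.37 on the log2 scale, and Cish, a target and inhibitor of STAT5, by -2.44 with vehicle (edgeR adjusted p = 0.00323), while its value of -1.02 with D + Q was not called (adjusted p = 0.126). Socs3, an inhibitor induced by cytokines, was higher by 2.45 and 2.94. Between D + Q and vehicle in sham muscle, Stat5a (log2 -0.217, edgeR adjusted p = 0.405) and Socs1 (-0.962, adjusted p = 0.433) were at an unadjusted p under 0.05.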

How the data were processed

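The authors aligned reads with STAR 2.7.8a to GRCm39 and quantified genes in Partek Flow by expectation maximization, and deposited estimated counts without normalization. These were rounded. Each row sums to at least 10, 29.8% of values are not whole, and 0 columns were left unused. Whether counting used strand is not given in the sources used here. No libraries of a group agreed within sampling noise (ratio of observed to counting variance at least 6.53).

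Genes with 10 or more counts in 5 or more mice of a fit were tested with edgeR 4.0.16 (robust quasi-likelihood fit, TMM factors, R 4.3.3) and p-values adjusted by Benjamini-Hochberg over all of them. Pairwise comparisons used their own 10 mice and the interaction used 20. Members also had two-sided exact permutation tests between D + Q and vehicle. Alternatives were DESeq2 1.42.0, RLE factors, total counts only, no filter, a minimum of 50 counts, limma-voom (limma 3.58.1, weighted samples), a joint fit of the 20 mice, a replicate block, longest-transcript lengths, and leaving out each mouse. In counts simulated for D + Q against vehicle MOV over 15238 genes, edgeR recovered 74.5% of 200 genes that differed by 1 and 30.5% of 200 that differed by 0.5 (log2).

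Annotation came from GENCODE vM39, which names 96.6% of rows. Promoter windows came from a RefSeq table of GRCm38.p6 and were placed in GRCm39 by exact match. Members and lists were chosen with earlier results of these data known. All members were named. Each pathway list gave its 3 largest called rises and falls under MOV with vehicle, and genes whose D + Q difference had an unadjusted p below 0.05. A gene that this rule names is not reported here. Pappa, Stc1, Ctsd and, with D + Q and MOV, Socs1 were chosen after their values were seen.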

Additional observations from a re-analysis of the deposited data

Results flagged for a closer look

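Within groups of 5 mice, 3 of the 40 combinations of member and group had a mouse set apart from the rest by more than Dixon's 95% critical value of 0.71, a measure that chance exceeds in about 1 in 20 groups. The vehicle MOV mouse with the highest Igf2 held 149.1 CPM, and the next held 126.2. The D + Q sham mouse with the lowest Igfbp5 held 450.6 CPM, and the next held 680.7. The vehicle MOV mouse with the highest Igfbp6 held 124.7 CPM, and the next held 78.8. Igf2 and Igfbp6 were higher in MOV than in sham muscle with and without these mice, and the Igfbp5 value is the D + Q sham mouse 4 whose removal led to a call of lower Igfbp5 with MOV.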

How the results depend on the processing

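In MOV against sham muscle, every member called higher was called higher under each alternative that could test it, and every fit that left out a mouse gave 7 higher members with vehicle and 7 to 9 with D + Q, where Igfbp2 failed the count minimum in those with 7. The count of members called lower was 0 and became 1, always Igfbp5, with limma-voom in both treatments (log2 -0.398 and -0.279), with the replicate block in both (-0.382 and -0.232), with DESeq2 with D + Q only (-0.265), and it ranged from 0 to 1 over fits that left out a mouse. With total counts only, Igfbp5 changed sign (0.00875 with vehicle and 0.115 with D + Q, neither called) and Igf1r was called higher.

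For D + Q against vehicle and for the interaction, 0 members were called under every alternative. Signs changed for Igf1r in sham with limma-voom (-0.0171) and the Igfbp4 interaction with the replicate block (0.00714). Over fits that left out a mouse, the D + Q difference in MOV ranged from -0.0147 to 0.101 for Igf1r and from -0.0491 to 0.194 for Igfbp7, and that in sham from -0.0556 to 0.0811 for Igf1r. The interaction ranged from -0.0535 to 0.102 for Igf1r, -0.0242 to 0.0268 for Igf2r, -0.69 to 1.97 for Igfbp2, -0.165 to 0.156 for Igfbp4, -0.0174 to 0.228 for Igfbp5 and -0.204 to 0.072 for Igfbp6. The cause of these changes was not tested.

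Over all genes, calls between D + Q and vehicle MOV muscle numbered 0 in the main test, 8 with DESeq2 and 2 with the replicate block. In sham they numbered 30, against 125 with DESeq2, 67 without a filter, 49 with total counts only, 19 with the block, 19 in the joint fit of 20 mice, and 2 to 74 when a mouse was left out. The same replicate numbers, taken from the sample titles, recur in each group. Deviations of mice with the same title number correlated by only -0.168 to 0.217. Nothing in the labels says that a number marks a pairing, and this check cannot settle whether mice were paired in another way. The columns of the count matrix number the mice differently in sham and MOV groups, and that numbering was not examined. At these depths Igfbp2 in sham muscle, with 4 counts over 5 mice, is too low for a fold with useful precision.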
